A study of Mus musculus with 10 samples.

Results

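The respiratory complexes II to V, which carry out the last steps of oxidative phosphorylation in mitochondria, were followed in mouse ventricles through the transcripts of their nuclear-encoded subunits. The genes were all those whose symbol begins with Sdh (complex II), Uqcr (complex III), Cox4 to Cox8 (complex IV) or Atp5 (complex V), each taken by the brightest probe set annotated to that symbol alone. They numbered 48 of the 12393 genes named on the array. Of these, 7 were in complex II, 8 in complex III, 16 in complex IV and 17 in complex V. The 7 include the assembly factors Sdhaf1, Sdhaf2 and Sdhaf4, which are not subunits. The choice used gene symbols and overall brightness and no difference between groups.

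RNA from ventricular tissue was hybridised to Affymetrix 3′ expression arrays in 3 groups. Mice of the alpha-TM175 group (TM175, 3 arrays) and of the alpha-TM180 group (TM180, 4 arrays) carry an alpha-tropomyosin transgene, and nontransgenic controls (NTG, 3 arrays) carry none. Tropomyosin is the coiled-coil protein of the thin filament, and from background knowledge the transgenes encode mutant forms linked to familial hypertrophic cardiomyopathy, milder in TM175 mice and more severe in TM180 mice. No mouse received a treatment, and the promoter of the transgenes, age, sex and strain are not given in the labels used here. The last array of each group (TM175 array 3, TM180 array 4, NTG array 3) held a pool of 20 heart extracts and every other array 1 extract. The values are RMA intensities on a linear scale, differences are on the log2 scale, and the number of arrays limits the precision of each.

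Complex II oxidises succinate and is also an enzyme of the citrate cycle. Complex III passes electrons from ubiquinol to cytochrome c, complex IV passes them on to oxygen, and complex V uses the resulting proton gradient to make ATP. Heart muscle is rich in mitochondria, and several complex IV subunits exist there as a muscle isoform beside a general one. Many of their genes are known targets of the nuclear respiratory factors NRF1 and GABP and of the estrogen-related receptors (ERR).

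TM175 array 1 stood apart from the rest of its group in 2 sex-linked transcripts and in an atrial one. Xist, the RNA of the inactive X chromosome, was at 988 there and at 130 and 414 on TM175 arrays 2 and 3, against 99.5 to 394 on TM180 and 99.9 to 149 on NTG arrays. Eif2s3y, a gene of the Y chromosome, was at 7.23 there and at 35.3 to 60.8 on all other arrays, the reading of a female heart. Among the pools Xist was at 414 (TM175), 394 (TM180) and 149 (NTG). Sex was not in the model. Nppa, the atrial natriuretic peptide gene, was at 521 there and at 5478 and 3822 on TM175 arrays 2 and 3, against 5991 to 9127 on TM180 and 635 to 906 on NTG arrays. In Myh7, a myosin heavy chain gene, TM175 array 1 was unlike NTG, at 6319. TM175 arrays 2 and 3 had 2529 and 5063, and NTG arrays 325 to 350. The 8 atrial markers summed to 1182 on that array and to 6104 and 4589 on TM175 arrays 2 and 3. Nppa is 1 of these 8 and makes up most of the larger sums, so the sum is not a separate observation. Medians without TM175 array 1 are therefore given beside those of the 48 genes, the complexes and the larger gene lists. The summed intensity of 14 cardiomyocyte markers was 83920 to 92850 on TM175, 86800 to 94400 on TM180 and 89770 to 98110 on NTG arrays, so the labelled tissue had its markers in every group. Another listed marker, Actc1, has a probe set whose level could not be settled, and it was left out of the sum. The 12 fibroblast markers summed to 9377 to 13940 on TM175 and 11500 to 16460 on TM180, against 6615 to 9433 on NTG arrays. Median intensity per array ran between 66.7 and 71.0.

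Promoters of 37 of the 48 genes were found in RefSeq (build GRCm38.p6, 250 bases before to 50 after the start of transcription). On either strand, the NRF1 motif (GCGCA, any base, then GCGC) was present in 11 of 37 (29.7%), against 7.17% of 17491 genes, and the GABP motif CCGGAAG in 15 (40.5%), against 12.9%. The ERR motif TCAAGGTCA was present in 2, Sdhd and Atp5g3, against 0.377% of all genes. The YY1 motif AAGATGGC was found in 3 (8.11%, against 3.57%), the SP1 motif GGGCGG in 16 (43.2%, against 49.2%) and the MEF2 motif CTAAAAATA in 0 (against 0.475%). The 3 promoters shown are those of Sdha, which held 3 NRF1 motifs, of Sdhd, which held NRF1, GABP, ERR and SP1 motifs, and of the muscle isoform gene Cox7a1, which held none of the 6. Capitals mark the NRF1, GABP and ERR motifs and not the SP1 motif. The GABP and ERR motifs appear as their reverse complements CTTCCGG and TGACCTTGA. The windows lie at chr13:74350191-74350490 on the minus strand (Sdha), chr9:50603800-50604099 on the minus strand (Sdhd) and chr7:30183921-30184220 on the plus strand (Cox7a1).
Sdha: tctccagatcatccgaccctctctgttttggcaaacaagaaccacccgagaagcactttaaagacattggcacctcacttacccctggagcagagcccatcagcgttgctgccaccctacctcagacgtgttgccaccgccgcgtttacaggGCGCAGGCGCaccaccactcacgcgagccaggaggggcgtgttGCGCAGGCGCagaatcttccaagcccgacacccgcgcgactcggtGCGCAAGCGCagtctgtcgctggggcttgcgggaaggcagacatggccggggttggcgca
Sdhd: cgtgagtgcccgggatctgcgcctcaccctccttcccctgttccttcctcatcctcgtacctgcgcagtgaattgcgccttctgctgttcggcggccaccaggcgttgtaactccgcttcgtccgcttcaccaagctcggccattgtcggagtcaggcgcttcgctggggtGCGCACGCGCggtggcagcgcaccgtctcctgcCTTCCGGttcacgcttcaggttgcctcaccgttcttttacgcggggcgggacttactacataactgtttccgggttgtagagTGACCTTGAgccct
Cox7a1: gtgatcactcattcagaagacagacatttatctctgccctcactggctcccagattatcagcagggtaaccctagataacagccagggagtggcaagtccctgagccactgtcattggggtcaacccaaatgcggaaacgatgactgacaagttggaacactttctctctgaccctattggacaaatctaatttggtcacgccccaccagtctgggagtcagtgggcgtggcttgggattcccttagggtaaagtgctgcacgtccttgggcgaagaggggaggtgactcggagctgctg

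Across the 48 genes, transcripts of complexes II, III and V were mostly a little lower in both transgenic groups than in NTG hearts, while those of complex IV lay on both sides of NTG, with medians of 0.00 in TM175 and -0.05 in TM180. By limma, with p-values adjusted over the whole array and called under 0.05, none of the 48 genes passed in TM175 or in TM180 hearts. In TM175 hearts 37 of 48 lay below NTG, with a median log2 difference of -0.13, and in TM180 hearts 43 of 48, with a median of -0.11. Over all 22626 probe sets 42.1% and 51.5% lay below NTG, with medians of 0.04 and -0.01. In TM175 the count and the median were close to those of bright probe sets, described below (77.1% below NTG, median -0.12). Both comparisons share the NTG arrays. The 95% interval of each fold difference stayed within 2-fold for 48 of 48 genes in both comparisons, and within 1.5-fold for 41 in TM175 and 44 in TM180.

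The count of 0 called genes stood beside 0.00884% of probe sets called in TM175 (2 of 22626) and 0.504% in TM180 (114). With extract type (pooled or individual) in the model the count was again 0, against 0.862% and 2.0% of probe sets. The lowest adjusted p was 0.199 in TM175 (Sdha) and 0.188 in TM180 (Cox7a1). At an unadjusted p under 0.05, 12 of 48 were lower in TM175, against 7.25% of probe sets, and 9 of 48 in TM180, against 3.95%. By the same criterion 0 were higher in TM175, against 5.8%, and 1 in TM180 (Cox4i2), against 5.4%. With limma array weights 16 genes were called in TM175, against 23.7% of all probe sets, and 1 in TM180, against 3.33%.

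On every TM175 array 17 of the 48 genes read lower than on every NTG array (35.4%, against 8.11% of all probe sets), and on every TM180 array 15 did (31.2%, against 4.19%). Reading higher than on every NTG array was seen for 1 gene in TM175, against 8.42%, and for 0 in TM180, against 5.98%. These are bright transcripts, 41 of them above 1000 on all arrays, and the 750 probe sets averaging 1000 or more gave 23.3% in TM175 and 12.5% in TM180 by the same criterion. The median log2 difference of those bright probe sets was -0.12 for TM175 and -0.03 for TM180, and 77.1% and 55.3% of them lay below 0. After renewed quantile normalization the median of the 48 genes was -0.0355 in TM175 and -0.10 in TM180, and 6 genes (12.5%, bright probe sets 11.6%) and 10 genes (20.8%, bright probe sets 12.5%) were below every NTG array. The TM175 shift therefore changed with the scaling of bright probe sets more than the TM180 shift did. Leaving out TM175 array 1 left 17 genes below every NTG array, against 10.5% of probe sets, a median of -0.10 and 0 genes called.

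**Figure D1:**
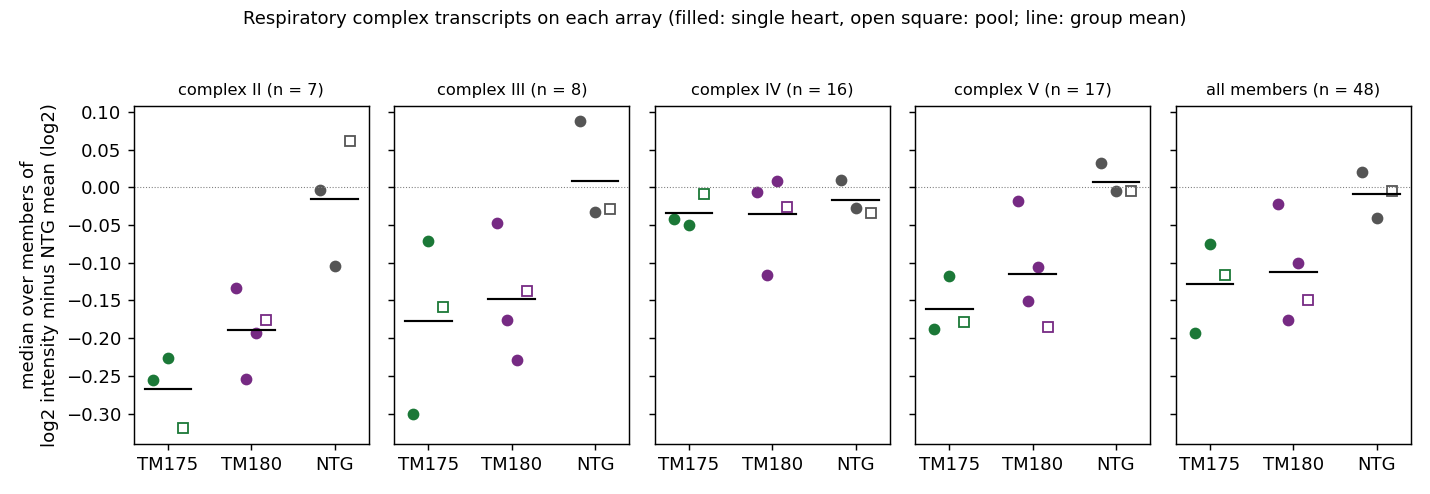
Median over the genes of each complex of the log2 intensity minus the NTG mean (vertical axis), for each array of TM175, TM180 and NTG; filled circles are single hearts, open squares are pools of 20 and lines are group means. In complex II all transgenic arrays lie at -0.13 or lower and all NTG arrays at -0.10 or higher, whereas in complex IV the groups overlap.

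Array by array, the median of the 7 complex II genes relative to the NTG mean was -0.25, -0.23 and -0.32 in TM175 and -0.13, -0.25, -0.19 and -0.18 in TM180, against 0.00, -0.10 and 0.06 in NTG. For the 17 complex V genes it was -0.19, -0.12 and -0.18 in TM175 and -0.02, -0.15, -0.11 and -0.18 in TM180, against 0.03, 0.00 and 0.00 in NTG. Complex III lay between -0.30 and -0.07 in TM175 and between -0.23 and -0.05 in TM180, against -0.03 to 0.09 in NTG. In these complexes no transgenic array reached the NTG arrays, but TM180 array 1 came close to them in complexes III and V. Complex IV lay between -0.05 and -0.01 in TM175 and between -0.12 and 0.01 in TM180, against -0.03 to 0.01 in NTG. In complex IV the groups overlapped. Bright probe sets had medians of -0.12 in TM175 and -0.03 in TM180. Genes below every NTG array numbered 4, 2, 3 and 8 in complexes II to V in TM175 (8.11% of all probe sets). In TM180 they numbered 4, 2, 2 and 7 (4.19%). After renewed quantile normalization they numbered 1, 1, 0 and 4 in TM175 (7.79%) and 3, 0, 2 and 5 in TM180 (4.99%).

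Of the 7 complex II genes, all lay below NTG in both groups, and their median log2 differences were -0.36 (TM175) and -0.20 (TM180). The TM175 median was -0.32 without TM175 array 1, -0.22 without NTG array 1 and -0.21 with array weights, the last 2 close to the TM180 value. Assembly factors are among the 7, and the 4 subunits Sdha to Sdhd alone had medians of -0.28 in TM175 and -0.22 in TM180. Sdha, the flavoprotein subunit that oxidises succinate, was at 2232, 1928 and 1767 on TM175 arrays 1 to 3 and 2401, 1941, 2230 and 2145 on TM180 arrays 1 to 4, against 2589, 2689 and 2673 on NTG arrays 1 to 3. All transgenic arrays were below all NTG arrays, and the lowest value was the TM175 pool. Relative to NTG, TM175 hearts were at 0.742-fold (95% interval 0.625 to 0.882, adjusted p = 0.199) and TM180 hearts at 0.820-fold (0.698 to 0.963, adjusted p = 0.374). A second Sdha probe set gave log2 differences of -0.28 and -0.29.

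Sdhd, which helps anchor the complex in the inner membrane, was at 2196, 2361 and 1723 in TM175 and 2307, 2316, 2343 and 2297 in TM180, against 2566, 2850 and 2881 in NTG. The TM180 arrays lay close together, and again no transgenic array reached an NTG array. TM175 hearts were at 0.751-fold (0.627 to 0.901, adjusted p = 0.215) and TM180 hearts at 0.838-fold (0.708 to 0.994, adjusted p = 0.506). In TM175 the log2 difference was -0.74 between the pools and -0.25 among single hearts.

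Sdhb, the iron-sulfur subunit, was at 4140, 4479 and 4979 in TM175 and 4504, 4070, 4321 and 4375 in TM180, against 4929, 4543 and 5384 in NTG. The TM175 pool lay within the NTG range, while the 4 TM180 arrays were all below it. Fold differences were 0.915 (0.781 to 1.07, adjusted p = 0.612) in TM175 and 0.873 (0.753 to 1.01, adjusted p = 0.600) in TM180. The remaining complex II genes were the second anchor Sdhc and the assembly factors Sdhaf1, Sdhaf2 and Sdhaf4, which help mature the catalytic subunits. Their log2 differences ran between -0.47 and -0.14 in TM175 and between -0.24 and -0.07 in TM180, with Sdhaf4 the lowest in each.

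In complex III 7 of 8 genes lay below NTG in TM175 and 8 of 8 in TM180, with medians of -0.17 and -0.15. The TM175 median depended on single arrays and on scaling, at -0.10 without TM175 array 1, -0.11 without NTG array 1, -0.10 with the mean of a gene's probe sets and -0.05 after renewed quantile normalization. In TM180 that normalization gave -0.10, and the replicate block with extract type -0.08. Uqcrc2, a core protein of the complex, was at 2408, 2705 and 2724 in TM175 and 2807, 2870, 2808 and 3032 in TM180, against 3209, 3052 and 3470 in NTG. On this probe set the 3 groups did not overlap, in the order TM175, TM180, NTG. TM175 reached 0.805-fold of NTG (0.698 to 0.929, adjusted p = 0.227) and TM180 0.889-fold (0.777 to 1.02, adjusted p = 0.623). A second bright Uqcrc2 probe set gave log2 differences of -0.14 and -0.21, and its groups overlapped. There the TM175 pool, at 3240, read above every other array, so the order of the groups depends on the probe set.

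Uqcrc1, the partner core protein, was at 3809, 4658 and 3622 in TM175 and 4789, 4194, 3397 and 3676 in TM180, against 5260, 5007 and 4433 in NTG. Here the groups overlapped, since single hearts of TM175 (array 2) and TM180 (array 1) read above the NTG pool. Its fold differences were 0.820 (0.655 to 1.03, adjusted p = 0.424) and 0.814 (0.660 to 1.00, adjusted p = 0.544).

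Uqcrfs1, the Rieske iron-sulfur protein, was at 3387, 3826 and 3292 in TM175 and 3848, 3440, 3703 and 3567 in TM180, against 4069, 4141 and 3878 in NTG. Its transgenic arrays were all below the NTG arrays, by as little as 3848 against 3878. The fold differences were 0.868 (0.752 to 1.00, adjusted p = 0.385) and 0.903 (0.790 to 1.03, adjusted p = 0.722). The 5 small subunits Uqcr10, Uqcr11, Uqcrb, Uqcrh and Uqcrq ran between -0.21 and 0.10 on the log2 scale in TM175 and between -0.22 and -0.01 in TM180.

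**Figure D2:**
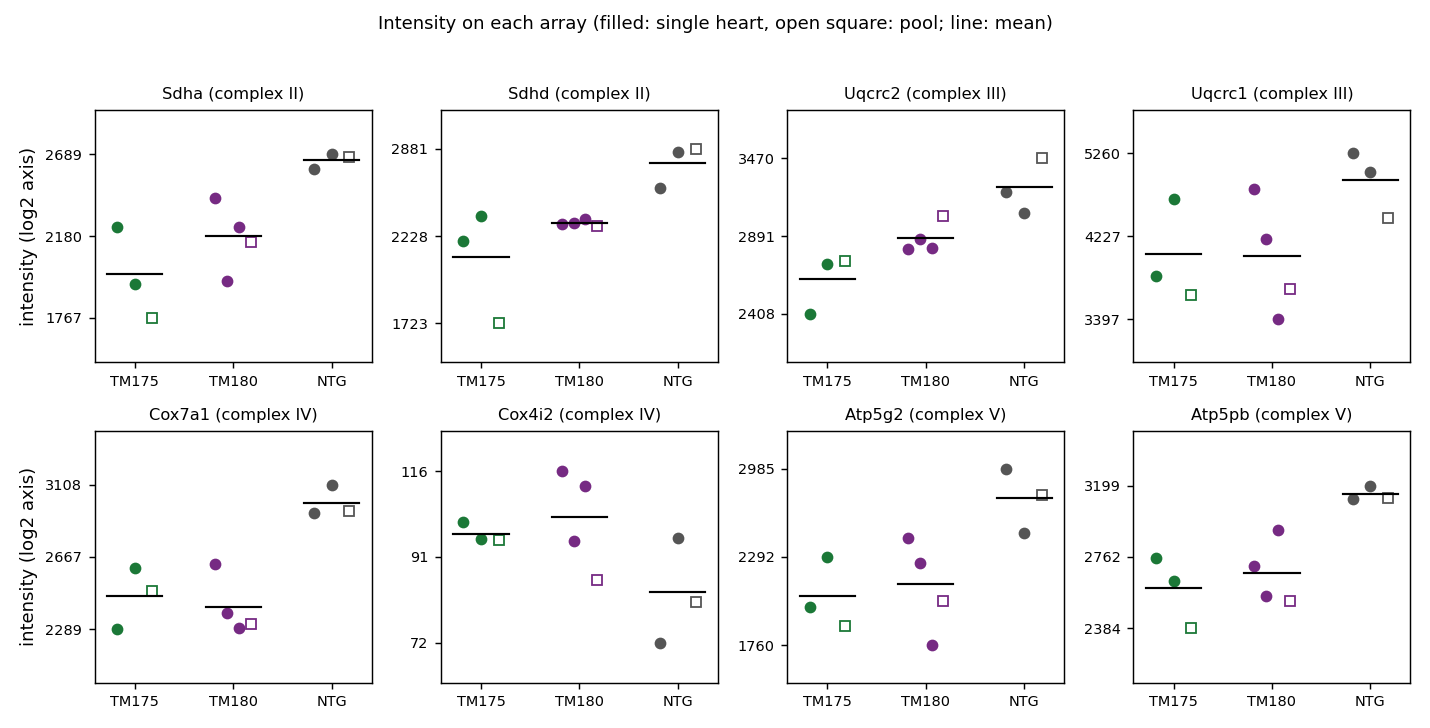
Intensity (log2 axis) of the chosen probe set of 8 subunit genes on each array of TM175, TM180 and NTG. Filled circles are single hearts, open squares pools of 20, and lines the means of the linear intensities. Sdha, Sdhd, Uqcrc2, Cox7a1, Atp5g2 and Atp5pb read lower on every transgenic array than on every NTG array, Uqcrc1 overlaps, and Cox4i2 tends the other way with overlap.

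Complex IV had as many genes above as below NTG in TM175 (8 of 16 each, median 0.00) and 12 of 16 below in TM180 (median -0.05). Without TM175 array 1 the TM175 median was 0.01. Of the genes above NTG in TM175, Cox4i2, Cox6b2, Cox7c and Cox8c had dim probe sets, and Cox5a, Cox5b, Cox7a2 and Cox8a bright ones. The 14 complex IV genes above the median level of all probe sets had medians of -0.02 in TM175 and -0.05 in TM180. Cox7a1, the heart and skeletal muscle form of subunit VIIa, was at 2289, 2604 and 2482 in TM175 and 2628, 2368, 2296 and 2315 in TM180, against 2924, 3108 and 2939 in NTG. No transgenic array reached the NTG range. TM175 hearts were at 0.821-fold (0.711 to 0.948, adjusted p = 0.257) and TM180 hearts at 0.802-fold (0.701 to 0.918, adjusted p = 0.188). Cox7a2, the general form of the same subunit, was at 5217, 5032 and 5368 in TM175 and 5005, 4796, 5227 and 5072 in TM180, against 4963, 5037 and 5243 in NTG. Those ranges overlapped throughout, with fold differences of 1.02 (0.902 to 1.16) and 0.989 (0.878 to 1.11). Cox7a2l, a relative of these that takes part in joining complexes III and IV, was at 1081, 1249 and 1336 in TM175 and 1343, 1236, 1525 and 1482 in TM180, against 1592, 1389 and 1382 in NTG. TM175 arrays were all below NTG arrays and TM180 arrays overlapped them, with fold differences of 0.839 (0.699 to 1.01, adjusted p = 0.398) and 0.959 (0.809 to 1.14, adjusted p = 0.991). The other 2 Cox7a2l probe sets gave -0.02 and -0.03 on the log2 scale in TM175, so its TM175 value depends on the probe set.

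Subunit IV also has a pair of forms, the general Cox4i1 and Cox4i2, which is known from lung and is induced by low oxygen. Cox4i1 was at 6318, 6122 and 6502 in TM175 and 7191, 6712, 6875 and 6101 in TM180, against 7569, 7182 and 6990 in NTG. It was below all NTG arrays in TM175 and overlapped them in TM180, with fold differences of 0.872 (0.757 to 1.00, adjusted p = 0.391) and 0.926 (0.812 to 1.06, adjusted p = 0.862). Cox4i2, a dim probe set, was at 101, 95.8 and 95.4 in TM175 and 116, 95.3, 111 and 85.3 in TM180, against 71.6, 95.99 and 80.3 in NTG. NTG array 2 lay among the transgenic arrays. The fold differences were 1.19 (0.957 to 1.47, adjusted p = 0.469) and 1.23 (1.01 to 1.51, adjusted p = 0.4996), the highest of the 48 genes in both groups.

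Cox6a2 and Cox8b are the muscle forms of their subunits, and Cox6a1 and Cox8a the general ones. Cox6a2 was at 4278, 5197 and 5563 in TM175 and 5400, 5294, 4030 and 5407 in TM180, against 5557, 4999 and 5685 in NTG. Cox6a1 was at 1905, 1745 and 1993 in TM175 and 2278, 2155, 2334 and 1993 in TM180, against 2288, 1867 and 1959 in NTG. Both overlapped between groups, with log2 differences of -0.12 (TM175) and -0.11 (TM180) for Cox6a2 and of -0.11 and 0.11 for Cox6a1. Cox8b was at 4536, 4601 and 4694 in TM175 and 4901, 4273, 4081 and 4171 in TM180, against 5258, 4477 and 4844 in NTG. Cox8a was at 2154, 2399 and 2090 in TM175 and 2374, 2416, 2136 and 2162 in TM180, against 2189, 2088 and 2058 in NTG. These overlapped as well, with log2 differences of -0.07 and -0.16 for Cox8b and of 0.07 and 0.10 for Cox8a, and an equally bright Cox8a probe set gave -0.08 and 0.02. None of these 4 genes had an adjusted p below 0.676 against NTG.

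A ratio of paired forms within an array shows unequal change and does not depend on the scaling of that array, although it can depend on brightness. Relative to the NTG mean, the log2 ratio of Cox7a1 over Cox7a2 was -0.42, -0.19 and -0.35 in TM175 and -0.16, -0.25, -0.42 and -0.37 in TM180, against 0.00, 0.07 and -0.07 in NTG. Every transgenic array was below every NTG array. For Cox4i2 over Cox4i1 the ratio was 0.49, 0.47 and 0.37 in TM175 and 0.51, 0.33, 0.51 and 0.30 in TM180, against -0.26, 0.24 and 0.02 in NTG. Here every transgenic array was above every NTG array, while the NTG arrays spread widely (SD 0.25, n = 3). Cox8b over Cox8a averaged -0.14 ± 0.11 in TM175 (SD, n = 3) and -0.26 ± 0.09 in TM180 (SD, n = 4), against 0.00 ± 0.09 in NTG (SD, n = 3). Its TM180 arrays were all below the NTG arrays and its TM175 arrays were not. With the equally bright second Cox8a probe set TM180 and NTG overlapped in this ratio. There TM180 array 3 had 4081 over 1754 and NTG array 2 had 4477 over 2153. Cox6a2 over Cox6a1 averaged -0.01 ± 0.21 in TM175 and -0.22 ± 0.28 in TM180, against 0.00 ± 0.13 in NTG, and overlapped between groups.

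**Figure D3:**
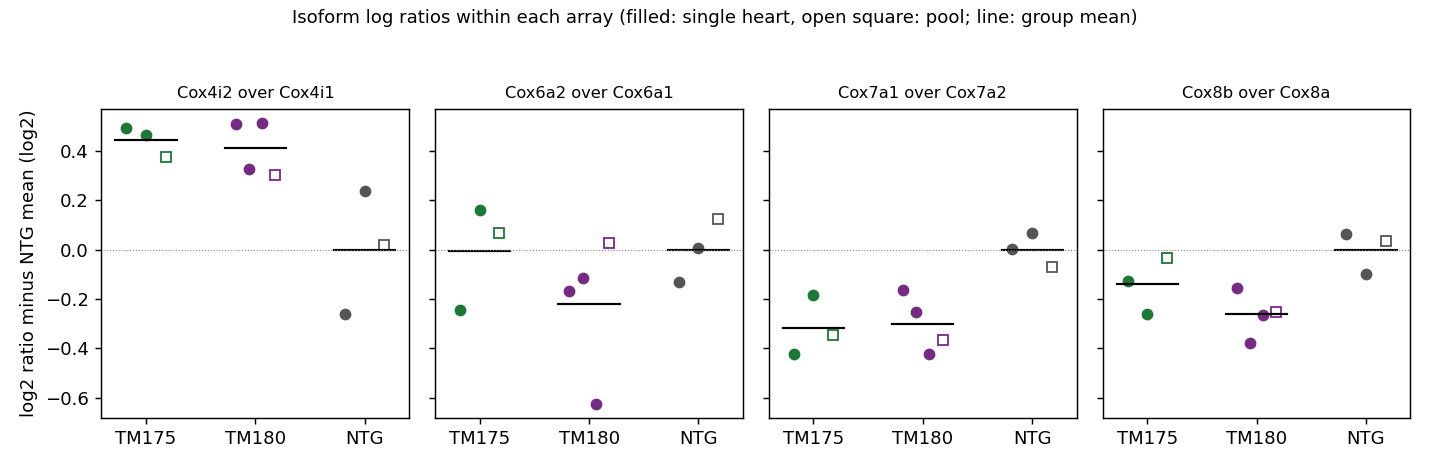
Log2 ratio of 2 forms of a complex IV subunit within each array, minus the NTG mean (vertical axis), for TM175, TM180 and NTG; filled circles are single hearts, open squares pools of 20, lines group means. Cox4i2 over Cox4i1 lies at 0.30 or higher on all transgenic arrays and at 0.24 or lower on NTG arrays, and Cox7a1 over Cox7a2 lies at -0.16 or lower on all transgenic arrays and at -0.07 or higher on NTG arrays.

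The other 7 complex IV genes, Cox5a, Cox5b, Cox6b1, Cox6b2, Cox6c, Cox7c and Cox8c, ran between -0.03 and 0.16 on the log2 scale in TM175 and between -0.24 and 0.03 in TM180. Cox6c, Cox6b1 and Cox5b were close to NTG, at -0.02, -0.03 and 0.02 in TM175 and -0.01, -0.02 and -0.03 in TM180. Cox5a is given by its second brightest probe set, because the size of the values of the brightest was not settled by the way they were written. Cox8c and Cox6b2, forms known from testis, and the Cox7c probe set were dim, at most 270, 35.5 and 34.2 on any array. Cox8c was the gene that read higher on all TM175 than on all NTG arrays.

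Complex V consists of the catalytic F1 head, a membrane ring of c subunits and a peripheral stalk that holds the head still. In TM175 15 of 17 genes lay below NTG and in TM180 16 of 17, with medians of -0.14 and -0.12. The TM175 median was -0.16 without TM175 array 1 and -0.07 after renewed quantile normalization, and the TM180 median -0.18 without NTG array 3. Atp5g2, which encodes the ring's c subunit, was at 1972, 2289 and 1864 in TM175 and 2428, 2254, 1760 and 2010 in TM180, against 2985, 2465 and 2756 in NTG. All transgenic arrays were below all NTG arrays, although TM180 array 1 came close to NTG array 2. TM175 hearts stood at 0.746-fold (0.604 to 0.921, adjusted p = 0.253) and TM180 hearts at 0.769-fold (0.632 to 0.937, adjusted p = 0.321). A second, dim Atp5g2 probe set gave 0.07 and 0.02 on the log2 scale.

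The 3 c-subunit genes encode the same mature protein. Of them, Atp5g1 was at 4296, 4627 and 4697 in TM175 and 5049, 4858, 4010 and 4859 in TM180, against 5746, 5260 and 5577 in NTG. It too did not overlap with NTG in either group, with log2 differences of -0.28 ± 0.11 and -0.24 ± 0.10 (SE). Atp5g3 had log2 differences of 0.08 and -0.05 and overlapped. Atp5g1 and Atp5g3 were singled out after their values were seen.

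Atp5pb, subunit b of the peripheral stalk, was at 2758, 2626 and 2384 in TM175 and 2708, 2545, 2922 and 2520 in TM180, against 3111, 3199 and 3119 in NTG. The NTG arrays lay close together and above all others. Fold differences were 0.822 (0.710 to 0.952, adjusted p = 0.274) and 0.849 (0.740 to 0.974, adjusted p = 0.401), and a second probe set gave -0.19 and -0.14 on the log2 scale. The stalk subunit genes Atp5h and Atp5j and the membrane subunit gene Atp5l also read below every NTG array in both groups, at -0.24, -0.18 and -0.29 in TM175 and at -0.20, -0.18 and -0.20 in TM180.

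Atp5c1, the central gamma shaft of the head, was at 5697, 5692 and 5986 in TM175 and 5540, 4993, 5492 and 5277 in TM180, against 6127, 5950 and 6462 in NTG. TM180 arrays were below both other groups, and the TM175 pool lay just above the lowest NTG array. Fold differences were 0.938 (0.822 to 1.07, adjusted p = 0.661) and 0.862 (0.762 to 0.975, adjusted p = 0.389). The catalytic subunits lay nearer to NTG, with log2 differences of -0.07 and -0.09 for Atp5a1 (alpha) and of -0.07 and -0.05 for Atp5b (beta). The 14 complex V genes other than Atp5c1, Atp5g2 and Atp5pb ran between -0.39 and 0.08 in TM175, with 12 below 0, and between -0.24 and 0.01 in TM180, with 13 below 0. The lowest TM175 value belonged to Atp5e (epsilon), whose arrays overlapped with NTG.

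**Figure D4:**
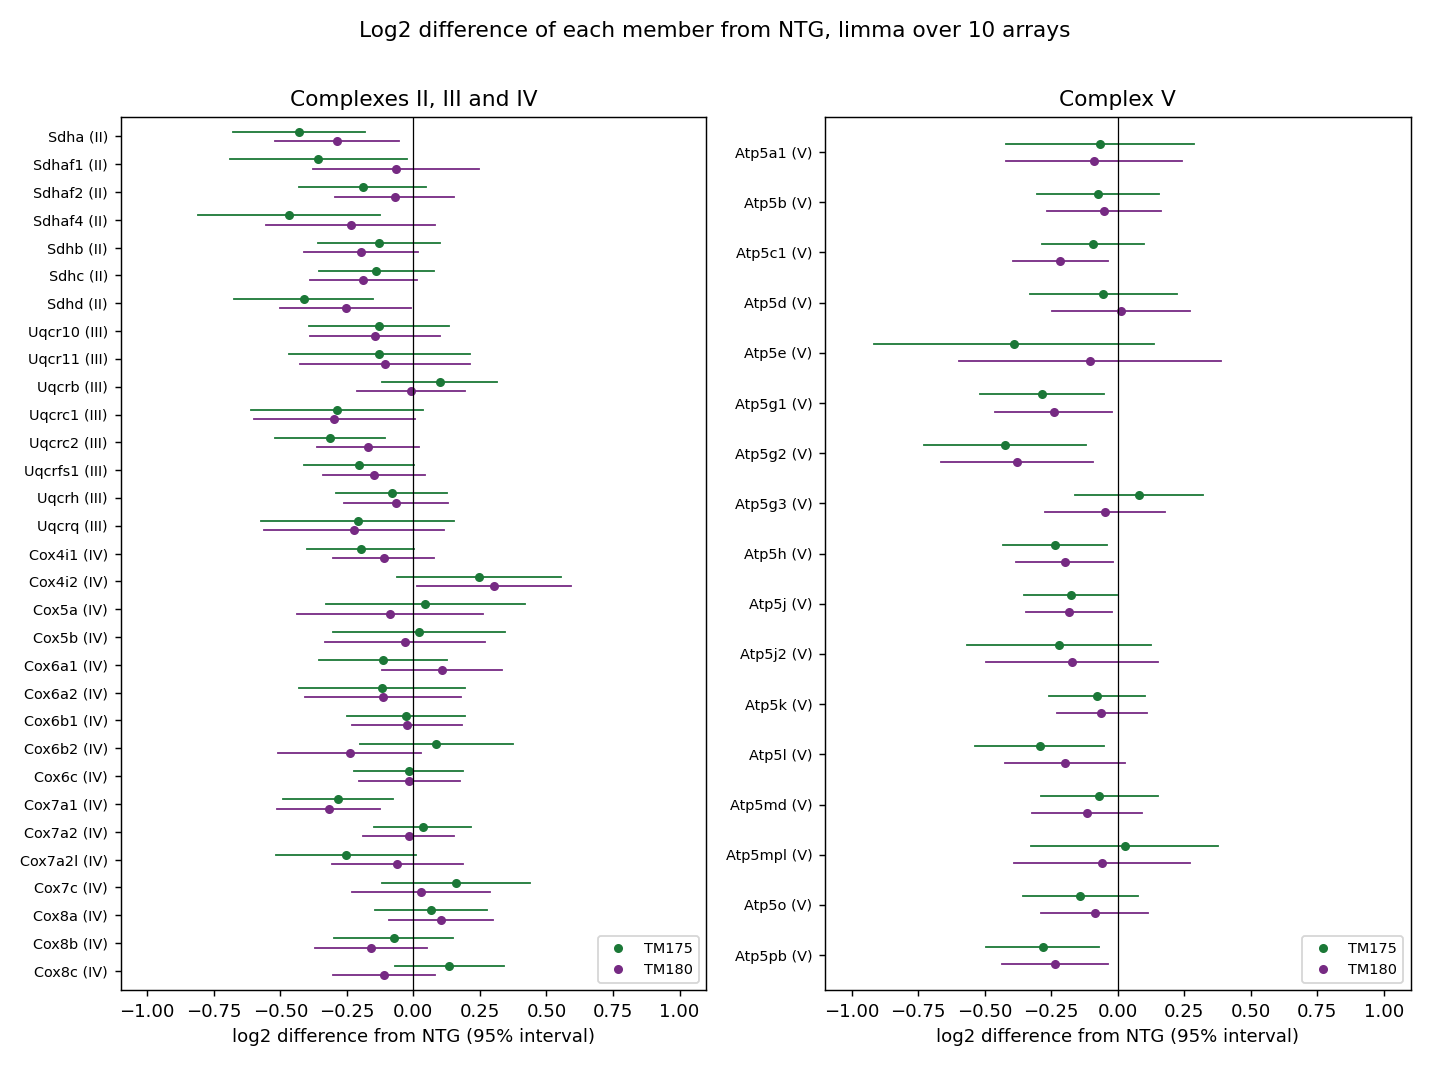
Log2 difference of each of the 48 genes from NTG (horizontal axis) with its 95% interval, by limma over 10 arrays; TM175 is drawn above TM180 for each gene, and the complex is in brackets. Most points of complexes II, III and V lie left of 0 and those of complex IV lie on both sides, and no gene passed after adjustment over all probe sets.

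TM180 was then set against TM175 to compare the severe with the mild line. No gene of the 48 was called, as was 0.0% of all probe sets, the lowest adjusted p being 0.328 (Cox8c). With extract type in the model 0 of 48 were called, against 0.0265% of probe sets, and at an unadjusted p under 0.05 2 of 48 were lower in TM180, against 6.37%, and 0 higher, against 6.89%. Array weights gave 3 called genes, against 10.3% of probe sets. The median log2 difference was 0.02, with 20 of 48 below 0, against 55.4% of all probe sets. Without TM175 array 1 that median was -0.01, on the other side of 0. The 750 bright probe sets had a median of 0.10 with 21.2% below 0, so on the deposited scale the 48 genes lay lower than bright probe sets. After renewed quantile normalization 33 of the 48 were below 0, with a median of -0.04, and the bright probe sets had a median of -0.02. The gap to bright probe sets was therefore smaller with that scaling. The interval of the fold stayed within 1.5-fold for 45 of 48 genes. By complex the medians were 0.14 for II, 0.00 for III, -0.02 for IV and 0.04 for V. Without TM175 array 1 they were 0.12, -0.06, -0.06 and 0.00. For the 4 complex II subunits Sdha to Sdhd alone the median was 0.05 (0.09 without TM175 array 1). On every TM180 array Cox6b2, Cox8c and Atp5c1 read below every TM175 array (7.37% of all probe sets did), and Uqcrc2 above (6.22%). The second bright Uqcrc2 probe set overlapped between the lines, with a log2 difference of -0.07. Cox6a1 had a fold difference of 1.16 (0.995 to 1.36, adjusted p = 0.387), with TM180 arrays at 1993 to 2334 and TM175 arrays at 1745 to 1993.

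Pools of 20 hearts differed from single hearts in 2 of the 48 genes when genotype was in the model, against 22.1% of all probe sets. Atp5a1 fell to 5393, 5908 and 6249 in the pools of TM175, TM180 and NTG, against 6877 to 8217 in single hearts (fold 0.781, limma adjusted p = 0.0105). Atp5mpl, a small membrane subunit of complex V, fell to 2636, 2262 and 2570 in these pools, against 2987 to 3412 in single hearts (fold 0.776, adjusted p = 0.00703). The median log2 difference of the 48 genes from NTG was -0.05 between pools and -0.14 among single hearts in TM175, and -0.13 between pools and -0.12 among single hearts in TM180.

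The genes beside the 4 complexes were described by counts, next to the 2 and 114 probe sets called over the whole array. Over all probe sets 42.1% lay below NTG in TM175 and 51.5% in TM180, and of bright ones 77.1% and 55.3%. Complex I, where electrons enter from NADH, had 39 genes, of which 38 lay below NTG in TM175 and 39 in TM180. Their median log2 differences were -0.22 and -0.19 (TM175 without array 1, -0.17). None of them was called, and with extract type in the model Ndufab1 and Ndufs4 fell in TM175 (log2 differences -0.56 and -0.54, adjusted p = 0.0341 and 0.0419), while Ndufs4 fell in TM180 (-0.44, adjusted p = 0.0352). Of the 35 assembly factors of complexes II to V 26 were measured, and 25 lay below NTG in TM175 and 23 in TM180, with medians of -0.36 and -0.17 and 0 called (TM175 without array 1, -0.33). Between TM180 and TM175 their median was 0.20 (0.13 without TM175 array 1), and 25 of 26 were above 0 with 0 called. Over all probe sets 55.4% lay below 0 in that comparison.

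Hccs, the lyase that attaches heme to cytochrome c, was at 325, 349 and 484 in TM175 and 367, 322, 361 and 514 in TM180, against 799, 716 and 887 in NTG. It was below all NTG arrays in both groups, and it fell in TM180 (log2 difference -1.05 ± 0.18 SE, adjusted p = 0.0364). The TM175 log2 difference was -1.07 ± 0.19 (adjusted p = 0.132), and TM175 passed only once extract type was included (adjusted p = 0.0021). The list of cytochrome c and its lyase held 4 genes, and the other 3 (Cycs, Cyct and Cyc1) were not called. Cyc1 encodes cytochrome c1, a subunit of complex III whose symbol falls outside the choice of genes. Its log2 differences were -0.21 in TM175 and -0.18 in TM180.

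Of 15 regulators of respiratory chain genes 0 were called, with medians of -0.04 in TM175 (0.03 without array 1) and -0.12 in TM180. Ppargc1a, the coactivator of mitochondrial biogenesis, was at -0.53 (adjusted p = 0.477) and -0.80 (adjusted p = 0.350). The 17 genes taken as a gauge of mitochondrial content had medians of -0.21 in TM175 (-0.21 also without array 1) and -0.16 in TM180, with 16 and 17 below 0 and 0 called. Atpif1, the inhibitor of complex V, whose symbol falls outside the choice of genes, was at 218, 320 and 405 in TM175 and 339, 391, 402 and 435 in TM180, against 388, 263 and 387 in NTG, with overlap throughout.

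Of the fibroblast markers 1 of 12 was called higher in TM175 (median 0.43, 0.38 without array 1) and 4 of 12 in TM180 (median 0.59). Of the cardiomyocyte markers 0 were called, with medians of -0.07 in TM175 (-0.04 without array 1) and -0.01 in TM180. The part of both marker lists in the differences of the respiratory complexes was not tested. In RNA of whole ventricles fewer cells of a type and less RNA per cell cannot be told apart.

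The 11 genes whose promoter held the NRF1 motif had median log2 differences of -0.24 in TM175 and -0.22 in TM180, and the 26 promoters without it had -0.13 and -0.11. The motif was in 3 of 6 promoters of complex II, 1 of 5 of III, 1 of 11 of IV and 6 of 15 of V. This split therefore cannot be told apart from the difference between complexes. For the GABP motif the medians were -0.13 and -0.10 with it (15 genes) and -0.14 and -0.15 without it (22 genes). Sdha and Sdhd, whose promoters are printed above, were among the lowest complex II genes, and Cox7a1, with none of the motifs, was the lowest complex IV gene in both groups. These are descriptions of the letters in the windows.

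Agreement between probe sets could be checked for 26 of the 48 genes. All probe sets of a gene had the same sign in 16 of them in TM175 and in 19 in TM180, and none of the 86 probe sets was called in either comparison. For 22 genes the chosen probe set carries a suffix (_a, _s or _x) marking probes that may match several transcripts, and for 10 of these, Cox8a and Atp5c1 among them, the suffix is _s or _x. Within groups the 48 genes varied little, with a median SD of 0.12 on the log2 scale, against 0.17 over all probe sets.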

How the data were processed

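Total RNA of mouse ventricles was extracted with Trizol, cleaned on RNeasy columns and labelled as biotinylated cRNA, per the labels' protocols. The deposited intensities are linear values per probe set that the authors obtained with RMA (background correction, quantile normalization and probe summary) per the submitters' processing notes, which give no version. The genome build used by the authors is not given in the sources used here. Intensities of 1000 or more carry a mark before their last 3 digits in the deposited table, so a bright probe set can look dim, and this was undone from the digits and the other arrays of the probe set (7878 values in 1061 probe sets). The level of 225 probe sets could not be settled, and these were kept as written. The 64 control probe sets were left out.

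Log2 intensities of 22626 probe sets on all 10 arrays were fitted with limma 3.58.1 (lmFit, eBayes) in R 4.3.3, 1 mean per group, and also with extract type. Tests were two-sided, adjusted by Benjamini-Hochberg over all probe sets and called under 0.05. The reading of the mark and the fit were tested on simulated data. A fold is a ratio of geometric means with its 95% interval. Nothing in the labels says how hearts were sampled across days, so p-values measure the spread between these extracts. The labels also do not say whether a pool held hearts that were measured singly. In the main fit a pool counted as much as a single heart. Each gene was taken by its brightest probe set with 1 symbol, taking those of settled level first (Actc1 and Myh4, in marker lists, have none). The 48 genes and all gene lists were chosen with earlier results of these data known. Values on every array are given for called genes, for the 2 genes of each complex with the smallest p-value against NTG in each line, for Sdhb, Uqcrfs1 and Atpif1, and for the Cox isoforms, and other genes by range. Cox7b, Cox7b2, Sdhaf3 and the mitochondrially encoded subunits were not analysed here. Promoter sequences and symbols came from RefSeq (GRCm38.p6). Alternatives covered extract type, individual extracts, a replicate block, renewed quantile normalization, median centring, array weights, dim probe sets, only the groups compared, an intensity trend, the mean of probe sets, the values as deposited, a threshold of 0.01 and leaving out each array. Plots were drawn with matplotlib 3.10.9, and tables handled with pandas 2.3.3 and numpy 2.4.6 in Python 3.11.15.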

Additional observations from a re-analysis of the deposited data

Results flagged for a closer look

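Of the 48 genes, 2 had 1 of the 4 TM180 arrays far from the other 3, by the gap to the nearest array divided by the group's range, above Dixon's 95% critical value. Chance gives about 1 such group in 20. Cox6a2 read 4030 on TM180 array 3 and 5294 to 5407 on the other TM180 arrays, a ratio of 0.928. Atp5g1 read 4010 on the same array and 4858 to 5049 on the others, a ratio of 0.833. Groups of 3 arrays were not examined in this way.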

How the results depend on the processing

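The median log2 difference of the 48 genes was within the spread between arrays of its value in the report under all alternatives but renewed quantile normalization in TM175, where it was -0.0355. Over the alternatives it ran from -0.17 to that value in TM175, from -0.15 to -0.09 in TM180 and from -0.04 to 0.05 between TM180 and TM175. Several alternatives could not move a TM175 difference from NTG and are no check of it. These were extract type, the replicate block, only the groups compared, the intensity trend, the values as deposited and leaving out a TM180 array. Leaving out an array of the group not compared has no bearing on the other comparisons either. Array weights gave 16 called genes in TM175, 1 in TM180 (Cox4i2) and 3 between the lines (Sdhaf1, Cox6a1 and Cox8c). Every other alternative, leaving out each array included, gave 0 in these 3 comparisons. They gave most weight to TM175 array 2 (3.24) and then NTG array 1 (2.92), and 5352 probe sets were called with them in TM175. The cause of these changes was not tested. Called genes between pools and single hearts ran from 1 (without TM175 array 3 or without TM180 array 4) to 5 (without NTG array 1) when 1 array was left out. With the replicate number as a block 0 genes were called, and the medians were -0.13 in TM175, -0.13 in TM180 and 0.03 between the lines. Samples with the same number deviated together at correlations of -0.51 to 0.71, so the numbers were not taken as a pairing. Of 1245 recomputed values of 19 named genes 1212 stayed within the spread, 23 moved beyond it, 10 passed the threshold and 41 changed sign without being called. The 1212 include values that their alternative could not move. Reading Cox5a by its probe set of unsettled level, an alternative chosen after seeing the data, gave -0.04 in TM175. The array count limits all of these.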
